A study of Mus musculus with 16 samples.

Results

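The genes described here are 9 members of the fibroblast growth factor (FGF) and mitogen-activated protein kinase (MAPK) pathway, out of 34614 protein-coding and lncRNA genes of the RefSeq annotation GRCm38.p6. They were chosen by name: the receptors Fgfr1 and Fgfr2, the MEK kinases Map2k1 and Map2k2, the ERK kinase Mapk3, the ETS factors Etv4 and Etv5, and the feedback inhibitors Spry2 and Dusp6. For each gene the window counted was the annotated gene body with 20 kb on each side. Together the 9 windows cover 697 kb. RefSeq coordinates of GRCm38.p6 are those of mm10, the build named in the submitters' processing notes.

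The libraries map where the maintenance DNA methyltransferase Dnmt1 acted in E14TG2a mouse embryonic stem cells. An altered enzyme with the N1580A substitution can use the cofactor analogue Ado-6-azide, which leaves an azide on DNA in place of a methyl group, and sequencing is primed from the tagged sites. Het denotes 3 libraries of cells heterozygous for the Dnmt1 N1580A knock-in. Another 8 libraries of the same genotype, 2 each, follow the move from naive toward primed cells on days 0, 2, 4 and 8. Wild-type Dnmt1 cells gave 3 libraries labelled WT and 2 labelled control, and the labels do not say how these differ. Electroporation delivered the analogue at 1 mM in every group, and DNA was isolated 3 h afterwards. Naive cells grew in serum medium with LIF, 3 µM CHIR99021 and 1 µM PD0325901. The days after day 0 were spent in serum and LIF without the pair of inhibitors. The labels do not say in which of these media the Het cells were grown at harvest, nor whether the knock-in is 1 clone or replicates came from separate cultures. The p-values therefore measure only counting error and the spread between these libraries, which may be technical.

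FGF4, made by embryonic stem cells themselves, binds FGF receptors, whose adaptors activate Ras, Raf, the MEK kinases and ERK. ERK then turns on ETS factors such as Etv4 and Etv5 and the inhibitors Spry2 and Dusp6, which feed back on the pathway. PD0325901 blocks MEK, and with CHIR99021 it makes up the 2i supplement that holds the cells in the naive state. Naive cells in 2i are known for low DNA methylation, which recovers after 2i is withdrawn. The libraries measured neither RNA nor ERK activity.

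Each library lists CpG positions with a read count. Of 46170 listed positions that fell in annotated promoters, 46170 lay at the C of a CpG on the forward strand. Libraries listed 390158 to 3423423 positions in Het and day cells and 960 to 9150 in wild-type cells. The day 0 libraries listed the fewest of the knock-in libraries, 390158 and 407127, against 3065096 and 2602884 on day 8. Levels are given as distinct positions per 1000000 positions listed in the same library (PPM), since reads carry no molecular identifiers and reads at a position can be PCR copies. The 9 windows together held 0.0491% to 0.0521% of the positions in Het libraries and 0.0437% to 0.0522% in day libraries.

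Promoter sequences show where label was absent. RefSeq promoters of GRCm38.p6, 250 bases before to 50 after the annotated start, were available for 6 of the 9 genes and are printed on the gene's strand for 4 of them. Capitals mark each CpG. The Etv5, Map2k2 and Dusp6 promoters are shown because they are rich in CpGs and none was listed, and the Fgfr2 promoter because it holds few CpGs and was labelled.

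Etv5, chr16:22439521-22439820, minus strand: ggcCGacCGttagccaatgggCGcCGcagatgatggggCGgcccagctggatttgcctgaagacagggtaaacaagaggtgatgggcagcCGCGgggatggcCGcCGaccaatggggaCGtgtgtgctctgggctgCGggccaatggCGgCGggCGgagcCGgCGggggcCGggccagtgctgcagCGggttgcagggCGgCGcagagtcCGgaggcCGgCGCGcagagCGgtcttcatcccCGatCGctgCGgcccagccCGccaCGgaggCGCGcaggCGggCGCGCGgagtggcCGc
Map2k2, chr10:81105665-81105964, plus strand: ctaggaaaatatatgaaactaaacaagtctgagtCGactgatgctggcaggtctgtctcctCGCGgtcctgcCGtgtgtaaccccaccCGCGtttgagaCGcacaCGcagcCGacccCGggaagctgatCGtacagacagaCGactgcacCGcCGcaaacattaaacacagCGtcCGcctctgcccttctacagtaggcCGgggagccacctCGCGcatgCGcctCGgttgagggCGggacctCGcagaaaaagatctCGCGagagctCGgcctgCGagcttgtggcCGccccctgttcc
Dusp6, chr10:99262981-99263280, plus strand: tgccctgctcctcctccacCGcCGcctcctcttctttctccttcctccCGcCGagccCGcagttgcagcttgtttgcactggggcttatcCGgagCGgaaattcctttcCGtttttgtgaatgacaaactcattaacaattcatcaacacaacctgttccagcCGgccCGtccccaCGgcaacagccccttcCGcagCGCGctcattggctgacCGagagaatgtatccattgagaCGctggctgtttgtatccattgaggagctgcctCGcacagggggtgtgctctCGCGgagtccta
Fgfr2, chr7:130266759-130267058, minus strand: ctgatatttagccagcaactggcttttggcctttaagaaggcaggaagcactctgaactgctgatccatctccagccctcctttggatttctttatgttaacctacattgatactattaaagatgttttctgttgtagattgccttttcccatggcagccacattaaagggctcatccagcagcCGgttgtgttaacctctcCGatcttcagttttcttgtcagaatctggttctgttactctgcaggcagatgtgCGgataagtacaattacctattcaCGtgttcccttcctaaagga

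The Etv5 promoter above has 37 CpGs, that of Map2k2 has 28 and that of Dusp6 has 19. None of them was listed in any of the 11 Het and day libraries, nor were the CpGs in the promoters of Map2k1 and Spry2 or in a second Etv5 promoter. Over these 6 promoters of 5 genes, 0 of 162 CpGs were listed. With 3 counts taken as the limit for a count of 0, that allows a share of up to 1.85%. Across the genome, 2.08% of the CpGs in promoters with 15 to 100 CpGs were listed in at least 1 of the 11 libraries, so nearly all CpGs of such promoters were unlisted in these data. The Fgfr2 promoter, with 4 CpGs, had 2 listed. Position 130266801 was listed in Het replicate 1 and position 130266873 in day 8 replicate 2. In promoters with 1 to 4 CpGs, 59.5% of CpGs were listed at least once, so listed CpGs were common in promoters of that class.

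Around the annotated starts of the 6 genes whose strand is known (Fgfr2, Map2k1, Map2k2, Etv5, Spry2 and Dusp6) listed positions were few. Within 1 kb of a start lay 30 of the 7043 positions listed in their windows over the 11 libraries, 0.426% (95% exact binomial interval 0.288% to 0.608%, counting error only), while that stretch is 2.41% of the window bases. The same stretch held 1.61% of the positions in the windows of 17492 protein-coding genes, where it is 2.31% of the bases. The low share held with a smaller and a larger stretch: 0.0852% of members' positions lay within 500 bases and 1.68% within 2 kb, against 0.74% and 3.67% for all protein-coding genes. By library, 0 to 5 of the members' positions lay within 1 kb of a start. Positions of the 11 libraries overlap and the members were not compared by a test. Of the 6 genes, 5 have promoters with 19 to 37 CpGs, a class in which few CpGs were listed genome-wide. The 17492 genes were not split by promoter CpG content, so a low share particular to the pathway is not shown. Fgfr1, Mapk3 and Etv4 were not in the promoter table and are not part of these counts.

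**Figure D1:**
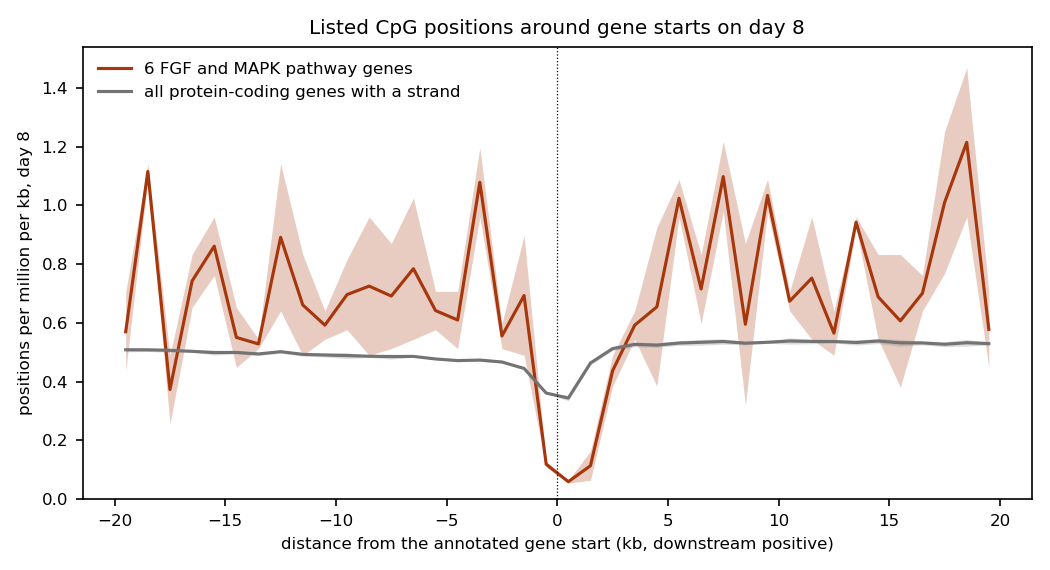
Listed CpG positions on day 8 as PPM per kb, in 1 kb bins by distance from the annotated gene start, for 6 pathway genes with a known strand and for all 17492 protein-coding genes with one. Lines are the mean and bands the range of the 2 day 8 libraries. Both lines dip at the start, the line of the pathway genes further, and genes were not split by promoter CpG content.

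Per length, the windows differed by more than the day 8 replicates did. On day 8 the Mapk3 window was the most densely labelled, at 1.11 and 0.998 PPM per kb of window. The Map2k1 window had 0.526 and 0.474 and the Spry2 window 0.509 and 0.454, and those ranges overlap. Map2k2, Fgfr1, Dusp6, Fgfr2, Etv4 and Etv5, in falling order of their means, lay between 0.735 and 0.882, and each overlapped its neighbours in that order. The median over 21887 protein-coding genes was 0.532. Mapk3 exceeded 97.3% of them on day 8, 98.4% in Het cells and 99.5% on day 0. Reference CpG content of the windows was not used here, so density per base and density per CpG cannot be told apart.

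The change from naive cells to day 8 was tested with edgeR's quasi-likelihood test on positions per window, fitted on all 8 day libraries with TMM scaling and with Benjamini-Hochberg adjustment over all windows. Of 32757 windows tested, 2483 were called at an adjusted p under 0.05, which is 7.58%, with 899 higher and 1584 lower. All 9 members were tested and 1 was called, Fgfr2, which was lower on day 8, where 4.84% of windows were called lower. With 9 members, 1 call is near the share of all windows. The members' median log2 change was 0.30 against 0.010 for all windows, and their changes ran between -0.50 and 0.66. With library totals in place of TMM the median of all windows was 0.13, and 1608 windows were called higher and 956 lower. Without TMM, calls higher and lower were 1713 and 873 on day 4 against day 0 (892 and 1604 with TMM), 231 and 248 on day 2 against day 0 (171 and 419), 107 and 23 on day 8 against day 2 (66 and 51), 1781 and 973 in Het against day 0 (941 and 1634) and 1517 and 459 for reads on day 8 against day 0 (1001 and 961). Directions are therefore relative to the bulk of windows.

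Fgfr2, a receptor tyrosine kinase on chromosome 7 (130162451 to 130266808), had the most positions of the 9 windows. It held 111, 109 and 108 PPM in the Het libraries, 146 and 140 on day 0, 120 and 122 on day 2, 106 and 112 on day 4 and 113 and 106 on day 8. Both day 0 libraries lay above every library of Het and the later days, and the day 4, day 8 and Het values overlapped. The log2 change was -0.50 ± 0.15 (SE) on day 8 against day 0 (edgeR adjusted p = 0.0212), -0.52 on day 4 against day 0 (adjusted p = 0.0186) and -0.32 on day 2 against day 0 (adjusted p = 0.354). Of all windows, 4.9% were called lower on day 4. With 1 library left out, the log2 change on day 8 against day 0 stayed between -0.54 and -0.47. The call on day 8 was lost without either day 0 library, in fits that leave 1 library on day 0. It was also lost without TMM (adjusted p = 0.0954), with DESeq2 (0.0666), without day 8 replicate 2 (0.0512) and with every library thinned to 4202118 reads (0.0927) or 390158 positions (0.42), while the direction stayed negative.

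Most positions of the Fgfr2 window lay in its body, which held 258 and 201 positions on day 8 and 45 and 42 on day 0, which is 84.2 and 77.2 PPM on day 8 against 115 and 103 PPM on day 0. The body alone changed by -0.50 ± 0.17 on the log2 scale (edgeR adjusted p = 0.0737) and the flanks alone by -0.37 (adjusted p = 0.573). Between 15 and 45 kb after the start, a stretch chosen for its high day 0 level after the profile was seen and so a description only, the pooled level was 26.6 PPM on day 8 and 48.9 on day 0. The day 8 libraries had 92 and 59 positions there and the day 0 libraries 18 and 21. No other protein-coding gene lies in this window.

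The 3 genes whose windows were most like Fgfr2 across the 11 Het and day libraries, among 1285 windows at least as abundant, were Rftn1 (r = 0.984), Grin2b (0.984) and Mgmt (0.983). The measure was Pearson's correlation of log2 TMM-scaled PPM with a prior count of 2. These values describe libraries that share depth within each group, and 1285 candidates were ranked.

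Fgfr1, an FGF receptor expressed in mouse embryonic stem cells, lies on chromosome 8 (25518759 to 25575718). It held 88.3, 85.6 and 90.5 PPM in the Het libraries, 64.1 and 51.6 on day 0, 71.0 and 63.5 on day 2, 78.8 and 84.6 on day 4 and 75.0 and 79.9 on day 8. All Het, day 4 and day 8 libraries lay above both day 0 libraries. The log2 change on day 8 against day 0 was 0.30 ± 0.21 and did not pass (edgeR adjusted p = 0.438), and that of Het against day 0 was 0.48 ± 0.20 (adjusted p = 0.140). The day 8 change was 0.45 without day 0 replicate 1 and 0.17 without day 0 replicate 2. Other annotated genes cover 58.8% of the Fgfr1 body, so its positions are not its own alone.

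**Figure D2:**
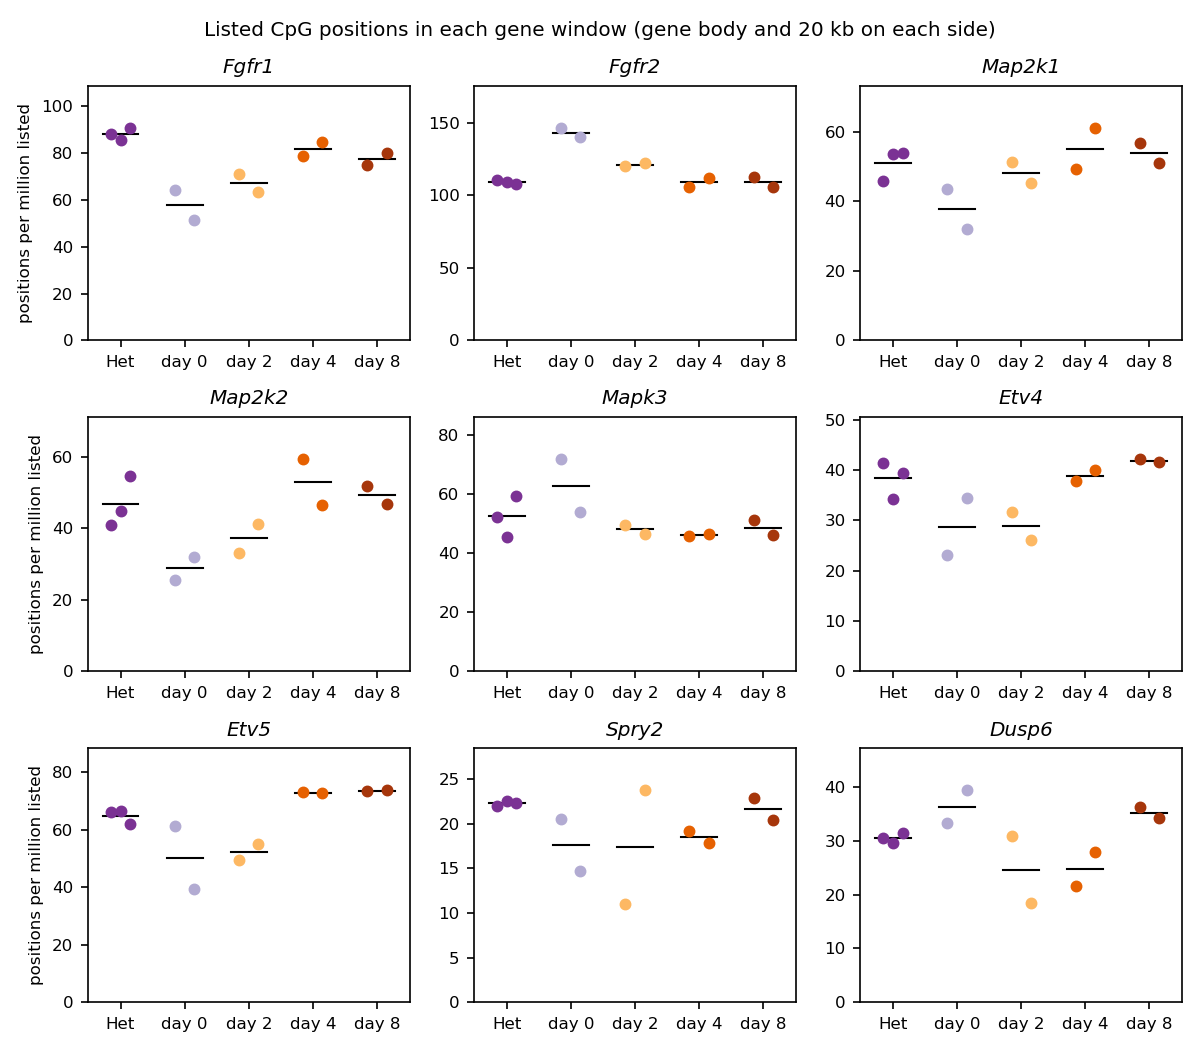
Distinct CpG positions in PPM (vertical axis, from 0) in the window of each of the 9 genes, by group. Each point is a library and each bar the group mean; Fgfr2 is highest on day 0, and the 2 day 8 points of Map2k1, Map2k2, Fgfr1, Etv4 and Etv5 lie above both day 0 points.

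Map2k2 encodes MEK2, which phosphorylates ERK and is a target of PD0325901, and lies on chromosome 10 (81105913 to 81124697). Its window held 40.8, 44.7 and 54.5 PPM in the Het libraries, 25.6 and 31.9 on day 0, 33.1 and 41.3 on day 2, 59.2 and 46.6 on day 4 and 51.9 and 46.9 on day 8. Every library of the later days and of Het lay above both day 0 libraries. In positions the log2 change on day 8 against day 0 was 0.66 ± 0.29 and missed the threshold (edgeR adjusted p = 0.151).

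Counted in reads, the Map2k2 window rose. It took 56.4 and 49.5 reads per 1000000 reads of the library (RPM) on day 8, against 25.7 and 24.4 on day 0, a log2 change of 0.93 ± 0.23 (edgeR adjusted p = 0.0408). It was the single member called among the 9 in reads, where 5.85% of 33545 windows were called and 2.98% were called higher. Each listed position in the window carried 4.47 and 4.27 reads on day 8 and 10.8 and 9.15 on day 0. The call was lost with a term for replicate number (adjusted p = 0.0637) and with each day 2, day 4 or day 8 library left out (0.0648 to 0.302). It was also lost when only day 0 and day 8 entered the fit (0.223) and after thinning to equal reads (0.0581) or equal positions (0.901).

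The Map2k2 flanks and body were also fitted apart. The flanks held 100 and 74 positions on day 8 and 5 and 2 on day 0, which is 32.6 and 28.4 PPM on day 8 against 12.8 and 4.91 on day 0. The flanks alone rose by 1.67 ± 0.45 on the log2 scale (edgeR adjusted p = 0.0170), in a fit that called 3.44% of 32278 flank pairs, with 1.03% called higher. The body alone held 59 and 48 positions on day 8 and 5 and 11 on day 0, a change of -0.15 (adjusted p = 0.881). The difference between body and flanks, fitted with the library as a block, was -1.89 ± 0.63 and did not pass (adjusted p = 0.200); it was -3.14 without day 0 replicate 1 and -0.70 without day 0 replicate 2. The flank call was lost without day 0 replicate 1 (adjusted p = 0.0650), without day 0 replicate 2 (0.386) and without day 8 replicate 1 (0.0545), and the value without day 0 replicate 1 was 2.48. Both sides contributed: the upstream 20 kb had 54 and 48 positions on day 8 and 3 and 2 on day 0, and the downstream 20 kb had 46 and 26 on day 8 and 2 and 0 on day 0. These flanks overlap Creb3l3 and Zbtb7a.

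Map2k1, which encodes MEK1, lies on chromosome 9 (64185769 to 64253605), with Zwilch, Rpl4, Snapc5 and Uchl4 in its window. Its window held 45.7, 53.5 and 53.8 PPM in the Het libraries, 43.6 and 31.9 on day 0, 51.3 and 45.1 on day 2, 49.2 and 60.9 on day 4 and 56.8 and 51.1 on day 8. Every library of the later days and of Het lay above both day 0 libraries. The log2 change on day 8 against day 0 was 0.40 ± 0.26 (edgeR adjusted p = 0.380). Leaving out day 0 replicate 1 gave 0.63 and leaving out day 0 replicate 2 gave 0.21. Counted in reads, the order differed: day 0 took 75.9 and 39.8 RPM and day 8 took 58.3 and 53.2. In reads, day 0 replicate 1 lay above every later and Het library and day 0 replicate 2 below them.

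Mapk3 encodes the kinase ERK1 and lies on chromosome 7 (126759626 to 126765816), with Gdpd3, Ypel3 and Tbx6 in its window. It held 52.4, 45.6 and 59.4 PPM in the Het libraries, 71.8 and 54.0 on day 0, 49.7 and 46.6 on day 2, 45.9 and 46.6 on day 4 and 51.2 and 46.1 on day 8. Both day 0 libraries lay above those of every later day, and a Het library lay between them. The log2 change on day 8 against day 0 was -0.48 ± 0.22 in positions (edgeR adjusted p = 0.187) and -0.69 ± 0.21 in reads (adjusted p = 0.0835). In positions it was -0.27 without day 0 replicate 1 and -0.66 without day 0 replicate 2.

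Etv5 showed the clearest change within a gene body. Etv5 is an ETS transcription factor induced by ERK and lies on chromosome 16 (22381313 to 22439570), with no other annotated gene in its window. Its body held 59, 148 and 109 positions in the Het libraries, 5 and 7 on day 0, 38 and 37 on day 2, 91 and 135 on day 4 and 146 and 116 on day 8. As a level this is 35.9, 43.2 and 41.3 PPM in Het, 12.8 and 17.2 on day 0, 30.0 and 28.3 on day 2, 43.5 and 52.4 on day 4 and 47.6 and 44.6 on day 8. Day 0 lay below Het and every later day, day 2 below days 4 and 8 and below Het, and the values of days 4 and 8 overlapped.

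The Etv5 body rose by 1.55 ± 0.35 on the log2 scale on day 8 against day 0 (edgeR adjusted p = 0.00141). It was the single member called among the 7 bodies tested, in a fit that called 5.03% of 20415 bodies, with 2.23% called higher. The change exceeded that of 95.2% of all bodies tested. In reads the body rose by 1.38 (edgeR adjusted p = 0.0419), where 2.51% of 30249 bodies were called and 542 were called higher. The body fit in reads was not repeated with a library left out. Without day 0 replicate 1 the adjusted p in positions was 0.114 and without day 0 replicate 2 it was 0.0538, with log2 changes of 1.39 and 1.83. Without any single library of days 2, 4 or 8 the body stayed called in positions.

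The Etv5 flanks, fitted apart, held 79 and 76 positions on day 8 and 19 and 9 on day 0, which is 25.8 and 29.2 PPM on day 8 against 48.7 and 22.1 on day 0. The flanks alone changed by -0.49 ± 0.30 (edgeR adjusted p = 0.408). The change in the body minus that in the flanks was 1.97 ± 0.48 (adjusted p = 0.0416), in a fit that called 0.171% of 27461 genes. That call was lost without any one of the day 0 and day 8 libraries: the adjusted p was 0.648 and 0.0873 without day 0 replicates 1 and 2, and 0.139 and 0.0513 without day 8 replicates 1 and 2. Without day 0 replicate 1 the difference itself was over 1.5 times smaller. Body and flanks together held 73.4 and 73.8 PPM on day 8 and 61.5 and 39.3 on day 0, and the window's change of 0.43 ± 0.22 did not pass (adjusted p = 0.25). It was 0.78 without day 0 replicate 1 and 0.15 without day 0 replicate 2.

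Along the Etv5 body, the stretch between 25 and 45 kb after the start was empty in both day 0 libraries. It was chosen for that count after the profile was seen, so its values are a description and no comparison is drawn from them. The same 20 kb held 29, 40 and 37 positions in the Het libraries, 9 and 15 on day 2, 32 and 43 on day 4 and 39 and 35 on day 8. The start of the gene, with its unlabelled promoter, lies outside this stretch.

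**Figure D3:**
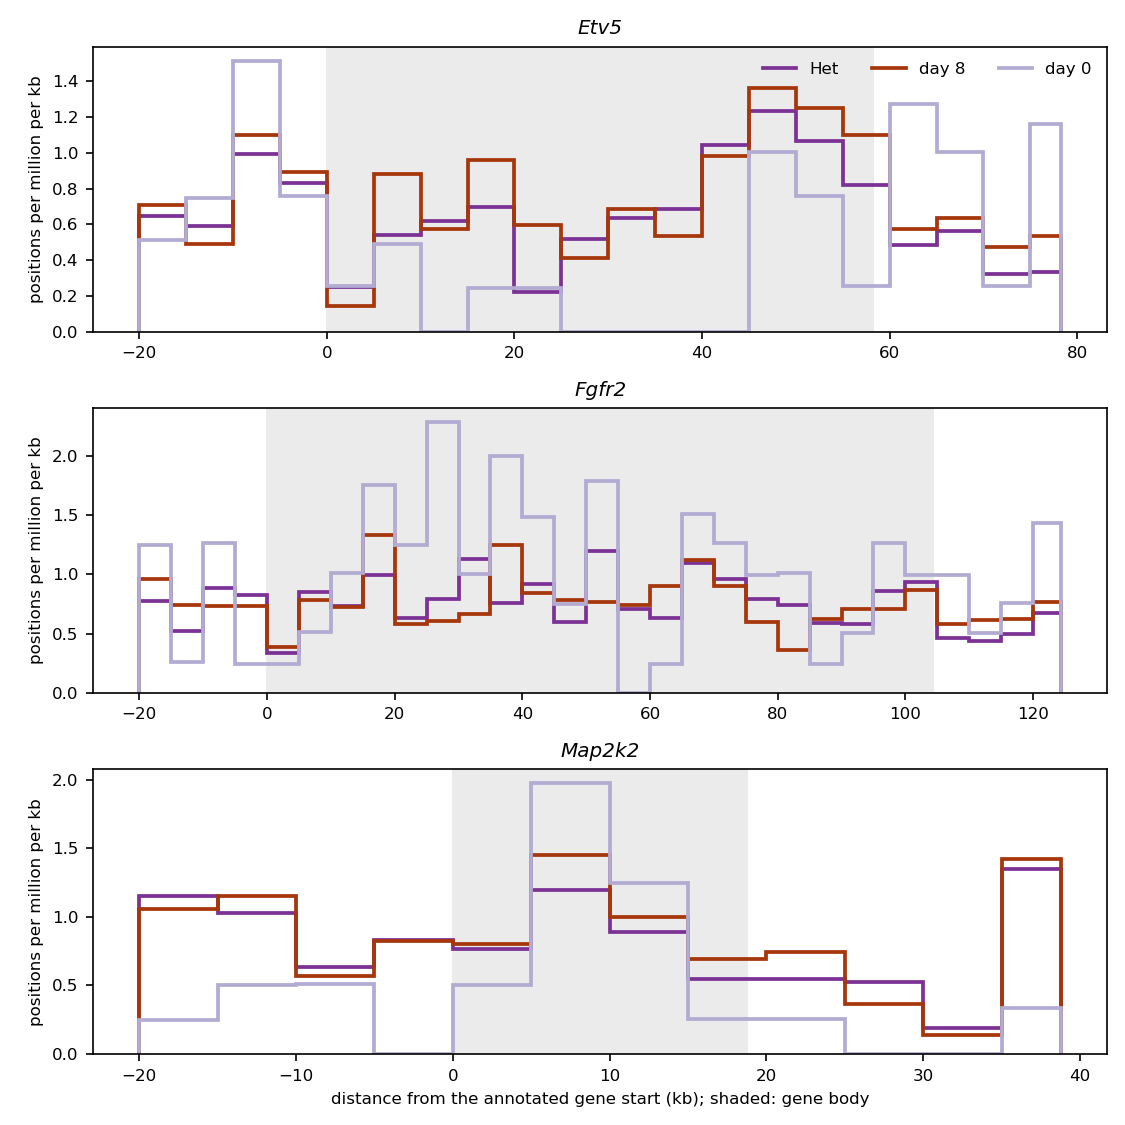
Distinct CpG positions as PPM per kb in 5 kb bins along the Etv5, Fgfr2 and Map2k2 windows, by distance from the annotated start, as means of the Het, day 8 and day 0 libraries. Etv5 has no day 0 position between 25 and 45 kb, Fgfr2 has its 2 highest day 0 bins between 15 and 45 kb, and the Map2k2 flanks are low on day 0.

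Etv4, the other ETS factor, lies on chromosome 11 (101769747 to 101785310), with other annotated genes, Dhx8 among them, over 38.6% of its window. Its window held 41.4, 34.2 and 39.4 PPM in the Het libraries, 23.1 and 34.4 on day 0, 31.6 and 26.0 on day 2, 37.7 and 40.0 on day 4 and 42.1 and 41.5 on day 8. The day 4 and day 8 libraries lay above both day 0 libraries, and day 2 lay between them. The log2 change on day 8 against day 0 was 0.41 ± 0.29 (edgeR adjusted p = 0.443), with 0.15 when day 0 replicate 1 was left out and 0.75 when day 0 replicate 2 was. Its body held 27 and 23 positions on day 8 and 2 and 0 on day 0, a pooled ratio of 3.52 (95% exact conditional binomial interval 0.924 to 29.8, counting error only). At that depth the body did not pass (edgeR adjusted p = 0.245).

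The feedback inhibitors had the shortest bodies and few positions in them. Spry2, a Sprouty protein that restrains receptor signalling, lies on chromosome 14 (105891947 to 105896819). Its window held 21.9, 22.5 and 22.3 PPM in the Het libraries, 20.5 and 14.7 on day 0, 11.05 and 23.7 on day 2, 19.1 and 17.9 on day 4 and 22.8 and 20.4 on day 8. Among Het and day libraries, those of day 2 held both the lowest and the highest value, and the log2 change on day 8 against day 0 was 0.18 ± 0.39 (edgeR adjusted p = 0.841), or 0.43 and -0.023 without day 0 replicates 1 and 2. Dusp6, a phosphatase that acts on ERK, lies on chromosome 10 (99263231 to 99267489). Its window held 30.5, 29.5 and 31.4 PPM in the Het libraries, 33.3 and 39.3 on day 0, 30.8 and 18.4 on day 2, 21.5 and 27.9 on day 4 and 36.2 and 34.2 on day 8. Days 2 and 4 lay below both day 0 and day 8, by log2 changes of -0.65 and -0.67 against day 0 (adjusted p = 0.361 and 0.180), while day 8 against day 0 gave -0.17 ± 0.28 (adjusted p = 0.791), or -0.28 and -0.022 without day 0 replicates 1 and 2.

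Within the 2 inhibitor bodies, each under 5 kb long, positions were too few for a comparison. The Spry2 body had 5 and 3 positions on day 8 and 0 and 0 on day 0, and the Dusp6 body had 7 and 4 on day 8 and 0 and 0 on day 0. The day 8 levels, 1.63 and 1.15 PPM for Spry2 and 2.28 and 1.54 for Dusp6, lie under 3.76 PPM. A count of 0 on day 0 allows that level, with 3 counts taken as its limit. A difference was thus not detectable at this depth.

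**Figure D4:**
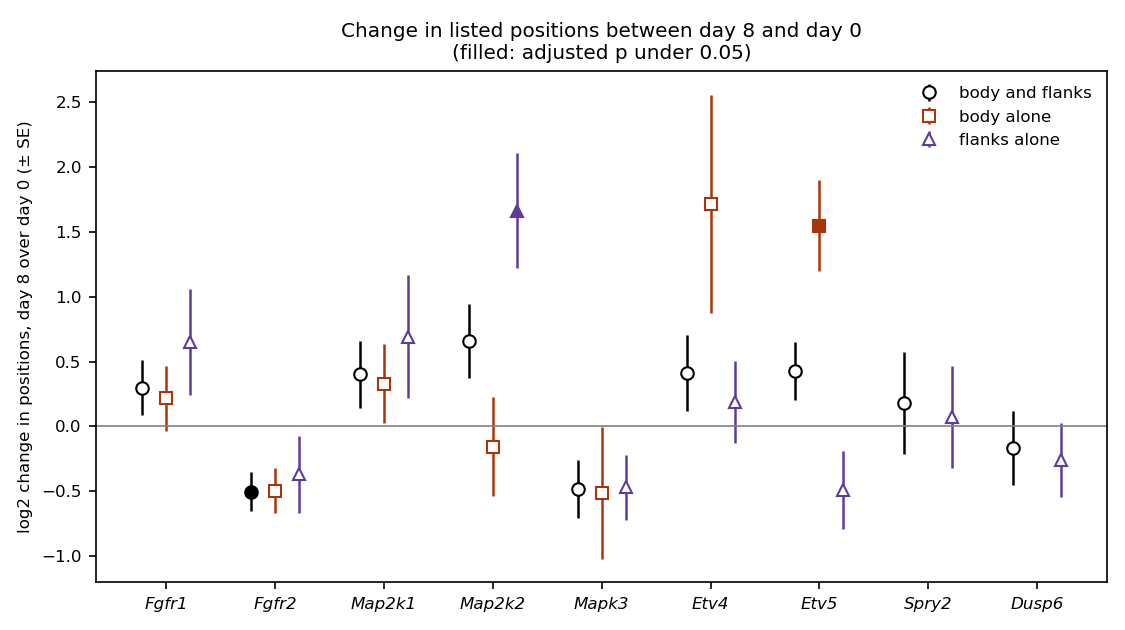
Log2 change in distinct positions on day 8 over day 0, for body and flanks together, the body alone and the flanks alone. Bars are approximate standard errors, the log2 change over the square root of F of edgeR's quasi-likelihood test. Filled symbols passed an adjusted p of 0.05: the Fgfr2 window, the Etv5 body and the Map2k2 flanks. The bodies of Spry2 and Dusp6 did not pass the filter on low counts and have no symbol.

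The order of days was compared further with day 2 in place of day 0, since day 2 libraries list more positions. On day 2 against day 0, where 1.8% of windows were called, no member was called with edgeR's quasi-likelihood test, and DESeq2 called none. With edgeR, 1 member had an unadjusted p under 0.05, beside 4600 of all 32757 windows. On day 4 against day 0, where 7.62% were called, Fgfr2 was called. On day 8 against day 2, where 0.357% were called, no member was called by edgeR or DESeq2. With edgeR, 4 members had an unadjusted p under 0.05, beside 3503 of all 32757 windows. Among the members Etv5 had the smallest p, with a log2 change of 0.44 ± 0.14 (edgeR adjusted p = 0.134). The comparisons against day 0 share its 2 libraries.

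Het libraries were set against the first and the last day. In Het against day 0, where 7.76% of 33204 windows were called and 4.92% were called lower, Fgfr2 was the member called, with a log2 change of -0.52 ± 0.15 (edgeR adjusted p = 0.0143). That call uses the same day 0 libraries as the day 8 call of Fgfr2 and is not independent of it. In Het against day 8 none of the 33204 windows was called with edgeR or DESeq2, with 1235 at an unadjusted p under 0.05 with edgeR. Among the members, Fgfr1 had the smallest p, with a log2 change of 0.18 ± 0.09 (adjusted p = 1.00). The members' changes in Het against day 8 lay between -0.22 and 0.18. These p-values do not show that Het and day 8 are alike, and a direct test of which day Het is nearer was not made.

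Other genes of the pathway were described through a list of 51 ligands, receptors, adaptors, Ras and Raf proteins, kinases, inhibitors and targets. All 51 windows were tested. On day 8 against day 0 edgeR called 3 higher and 1 lower, that is 4 of 51, beside the 7.58% called over all windows. Of all 32757 windows, 899 were called higher and 1584 lower. The list's median log2 change was 0.22 against 0.010 for all windows. By role, adaptors had a median of 0.40 with 7 of 8 above 0, kinases 0.39 with 4 of 5, inhibitors 0.33 with 9 of 12, and Ras and Raf genes 0.33 with 6 of 8. Receptors had a median of 0.22 with 2 of 3 above 0, targets 0.09 with 6 of 9, and ligands -0.28 with 2 of 6. The roles were not compared by a test.

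Grb2, the adaptor that brings Sos to activated receptors, rose by 1.62 ± 0.29 (edgeR adjusted p = 8.6e-06). It had 75.7 and 73.1 TMM-scaled PPM on day 8 and 16.3 and 31.8 on day 0. Spred2, an inhibitor of Raf activation, rose by 1.10 ± 0.20 (adjusted p = 1.6e-05), with 127 and 120 on day 8 and 56.9 and 58.2 on day 0. Rps6ka1, a kinase downstream of ERK, rose by 1.32 ± 0.27 (adjusted p = 0.00019), with 76.9 and 69.7 on day 8 and 29.8 and 29.1 on day 0. In each of these 3 windows every later library lay above both day 0 libraries. The 3 were named for their calls against these day 0 libraries, so that order is a description and no further evidence.

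Fgf5, a ligand gene used as a marker of primed cells, fell by 0.91 ± 0.24 on the log2 scale (edgeR adjusted p = 0.00703). It had 36.9 and 32.4 TMM-scaled PPM on day 8 and 67.7 and 63.5 on day 0, and Het, at 36.0, 34.4 and 37.5, lay with day 8. The Fgf5 call was lost without either day 0 library, in fits that leave 1 library on day 0.

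Wild-type cells gave the background. The 3 WT libraries listed 4, 1 and 4 positions in the 9 windows and the 2 control libraries 5 and 0, out of 23097 listed in these 5 libraries together. Fgfr1 held the most, 8 of the 14: 2 in WT replicate 1, 2 in WT replicate 3 and 4 in control replicate 1. Of the last 4, positions 25520149 and 25520166 lie close together. Pooled, the level is 346 PPM (95% exact Poisson interval 150 to 682, counting error only), above the 85.6 to 90.5 PPM in Het cells. The interval takes the 8 as independent, and Fgfr1 is the highest of 9 windows, so an excess over Het is not shown. Fgfr2 held 3, and Map2k2, Mapk3 and Etv5 held 1 each. Map2k1, Etv4, Spry2 and Dusp6 held none. With 3 counts taken as the limit for a count of 0, that allows up to 129.9 PPM. The exact Poisson interval reaches 160 PPM, and both limits lie above their Het and day levels. The background shows in absolute numbers instead: the 11 knock-in libraries listed 178 to 1681 positions in the windows. None of the 14 wild-type positions recurred in another wild-type library. Some were also listed in knock-in libraries, such as 126771202 in the Mapk3 window and 130204539 in the Fgfr2 window, each in 3. Others, such as 25548748 in the Fgfr1 window, were listed in 0 of them.

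Positions in the 9 windows were listed in a median of 2 of the 11 knock-in libraries, and few in many of them. Of the 5662 distinct positions listed in the 9 windows, 34 were listed in at least 6, 0.60%, against 0.455% of all 11843512 positions. With at least 4 libraries the shares were 8.50% and 6.98%, and with at least 8 they were 0% and 0.0214%. Mapk3 had the highest share of its positions in at least 4 libraries, 79 of 494, and Dusp6 the lowest, 19 of 371. No member position was listed in more than 7 libraries. The positions that reached 7 lay in the Mapk3, Etv5 and Map2k2 windows; in Map2k2 it was position 81115071 in the body, with 57 reads over its 7 libraries.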

How the data were processed

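Each library's group and replicate follow its title. Per the labels' protocols, azide-tagged DNA was joined to a biotinylated oligonucleotide, enriched, primed from it, amplified and sequenced on an Ion Proton. The submitters' processing notes name BWA 0.7.17-r1188, SAMtools 1.12, cutadapt 4.4 and build mm10; settings and duplicate handling are not given there. In each library's table, as deposited, coverage is a whole-number read count per listed position, without normalization. Unlisted positions were taken as 0.

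Positions and reads were summed over bodies and 20 kb flanks of 34614 RefSeq genes (GRCm38.p6) with Python 3.11.15, so overlapping windows share positions. Counts were fitted in edgeR 4.0.16 (R 4.3.3) with filterByExpr, TMM factors (0.935 to 1.04 for positions), library totals as depth, glmQLFit and glmQLFTest, with day libraries together, and Het libraries added for Het comparisons. Calls used a Benjamini-Hochberg adjusted p under 0.05. Standard errors are the log2 change over the square root of F. Alternatives were no TMM, no filter, body or flanks alone, thinning, a read cap of 10, other sample sets, DESeq2 1.42.0, a replicate block and each library left out; the fit of body against flanks and the body and flank fits without each library were added after the data were seen. Members, gene lists and tests were chosen with earlier results of these data known. Named genes were all members, up to 3 called list genes each way with the smallest adjusted p, and the 3 genes most like the member with the smallest adjusted p; Fgfr1 and Etv5 as smallest p in 2 comparisons were picked after their values were seen.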

Additional observations from a re-analysis of the deposited data

How the results depend on the processing

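Counts of windows called moved with several settings. With gene bodies alone, calls in positions were 234 on day 2, 908 on day 4 and 1026 on day 8 against day 0, 46 on day 8 against day 2 and 984 in Het against day 0; with positions thinned to equal totals they were 106, 585, 569, 0 and 1089, and with DESeq2 214, 936, 996, 11 and 1541. Flanks alone gave 1110 on day 8 against day 0. In reads, day 8 against day 0 gave 760 with bodies, 611 with flanks, 50 with thinned positions, 0 with only these groups, 4556 with all 11 libraries, 3293 with reads capped at 10 and 6759 with DESeq2. Leaving out 1 library gave 106 to 583, 600 to 2459 and 603 to 2437 calls on days 2, 4 and 8 against day 0, 3 to 127 on day 8 against day 2, 585 to 2578 in Het against day 0, 0 in Het against day 8 and, in reads, 0 to 10465. The range in reads was widest for the day 0 libraries, with 10345 and 10465 calls, and lowest for the day 8 libraries, with 0 and 3. The causes were not tested. Counts of members and pathway genes called under a setting, given next, are to be read beside these counts over all windows. In reads, 4556 of 33590 windows were called with all 11 libraries, 3293 of 33545 with capped reads and 6759 of 33545 with DESeq2. More calls among members under those settings are thus not a result about the pathway.

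Members called in positions, 1 in the fit reported, were 0 without TMM, with either thinning and with DESeq2, and 0 to 1 with 1 library left out. In reads they were 0 with flanks alone, either thinning or only these groups, 3 with 11 libraries, 2 with capped reads, 3 with DESeq2 and 0 to 5 with 1 library left out. The 51 pathway genes called were 3 to 6 in positions and 0 to 24 in reads with 1 library left out. The number of genes differing between body and flanks, 47, was 0 to 47.

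Directions turned as follows. Map2k2 was -0.15 in positions and -0.0197 in reads in the body alone, and Etv5 was -0.49 and -0.37 in the flanks alone. In reads, Map2k1 was 0.10 with thinned positions, 0.29 with capped reads and -0.59 to 0.34 with 1 library left out, and Etv4 was -0.15 in the flanks, -0.00078 with thinned positions and -0.38 to 0.82 with 1 library left out. The other values that turned did so without a day 0 library and, with 1 library left out, ran as follows: -0.0229 to 0.43 for the Spry2 window, -0.13 to 0.31 for its flanks, -0.55 to 0.54 for the Map2k2 body, -0.98 to 0.28 for the Mapk3 body, -0.21 to 0.77 for the Etv4 flanks and -0.94 to 0.16 for the Etv5 flanks. Differences between body and flanks ran -0.41 to 0.0076 for Fgfr2, -0.52 to 0.55 for Mapk3 and -0.10 to 1.47 for Etv4. The share near gene starts was 0.0852% at 500 bases and 1.68% at 2 kb, and the recurring share 8.50% at 4 libraries and 0% at 8. The Spry2 and Dusp6 bodies, at 0 on day 0, and the Etv4 body without day 0 replicate 1 have no fitted fold here.

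Replicate numbers did not pair the libraries: correlations of deviations were -0.0169 to 0.0311 in positions. With the replicate block 2459 windows were called in positions and 1325 in reads on day 8 against day 0, and among members the block ended the Map2k2 call in reads, leaving 0, and no other member call. The day 0 libraries listed 6 to 57 positions in a member's window, which limits the precision of values set against them.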
